A study of Mus musculus with 6 samples.

Results

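Trem2, Tyrobp, Gpnmb, Cd9, Cd63, Apoe, Lgals3, Cd68, Ctsb and Ctsl are 10 genes named together as markers of lipid-associated macrophages. They were followed across 6 bone libraries, as 10 of the 43346 genes in the deposited table. All 10 were found by name, and all 10 were among the 18757 genes that passed the filter on low counts. The genes were chosen by name from a known marker group with the radiated against non-radiated differences of these same libraries already in view. Their values in that comparison are therefore a description, and no p is given for them. The animals were 4-month-old C57BL/6 mice with no genetic alteration named in the labels. Radiated femurs, all from the right leg, took 24 Gy (gray, the unit of absorbed dose) as 1 dose aimed at 5 mm of the distal metaphysis, delivered at a rate of 6.6 Gy per minute. The non-radiated group is the left femur, which was not exposed, so each control bone also comes from an animal with a radiated opposite leg. The bone piece, from which muscle had been removed, was taken at day 21 in both groups, with 3 libraries in each, ahead of a bone loss that the design text places at day 28. No sex is given in the labels, and nothing in them says whether a library holds bone of more than 1 mouse.

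TREM2 is a cell surface receptor of macrophages, microglia and osteoclasts that binds lipids, lipoproteins and the surfaces of dying cells. It has no signalling tail of its own and works through the adaptor TYROBP (also called DAP12), which recruits the kinase SYK. In fat tissue, atherosclerotic plaques and diseased brain, macrophages loaded with lipid raise a set of genes that includes the lysosomal proteases, tetraspanins, galectin 3, apolipoprotein E and GPNMB. Most of these genes are also used by other cells of bone and marrow. CD9 and CD63 are abundant in platelets and in the megakaryocytes that shed them, TYROBP serves receptors of neutrophils, monocytes and NK cells, and osteoclasts use TREM2, TYROBP and GPNMB.

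The libraries held 34034251 to 48708383 gene counts. In non-radiated library 2 the single row AY036118 took 32.9% of the counts, against 0.321% to 5.61% in the others. RNA of skeletal muscle was high in 2 radiated libraries: 16 muscle genes summed to 842.4 CPM in radiated library 1 and 2786 CPM in library 2, against 222.1 CPM in library 3 and 184.9 to 383.1 CPM in the non-radiated libraries. CPM is the count scaled to a common library size, here after correction by the trimmed mean of M-values (TMM), so a level is set against that of most other genes. The tissue label was matched by its markers: osteoblast and osteocyte, erythroid, neutrophil and macrophage genes were all present, and no listed marker found in the table was at 0 counts in every library. In whole bone, fewer cells of a type and less RNA per cell cannot be told apart.

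Of the 10 genes, 4 were called higher in radiated femur (Trem2, Gpnmb, Apoe and Cd68), 1 was called lower (Cd9), and 5 were not called (Tyrobp, Cd63, Lgals3, Ctsb and Ctsl). A call means a Benjamini-Hochberg adjusted p under 0.05 in edgeR's quasi-likelihood test over all 18757 genes tested. Of all tested genes 7.8% were called, 4.56% higher and 3.24% lower. For 8 of the 10 genes the 3 radiated CPM values all lay on 1 side of the 3 non-radiated ones, as they did for 25.9% of all tested genes. Because the genes were chosen with this comparison in view, nothing is read from these counts. The median log2 fold change of the 10 genes was 0.20, with a range from -0.67 to 0.77, beside a median of 0.0023 over all tested genes. The genes thus did not move as a block: the receptor and 1 lipoprotein were higher, the adaptor was lower in each radiated library, and a pair of them, Cd63 and Lgals3, had overlapping groups.

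**Figure D1:**
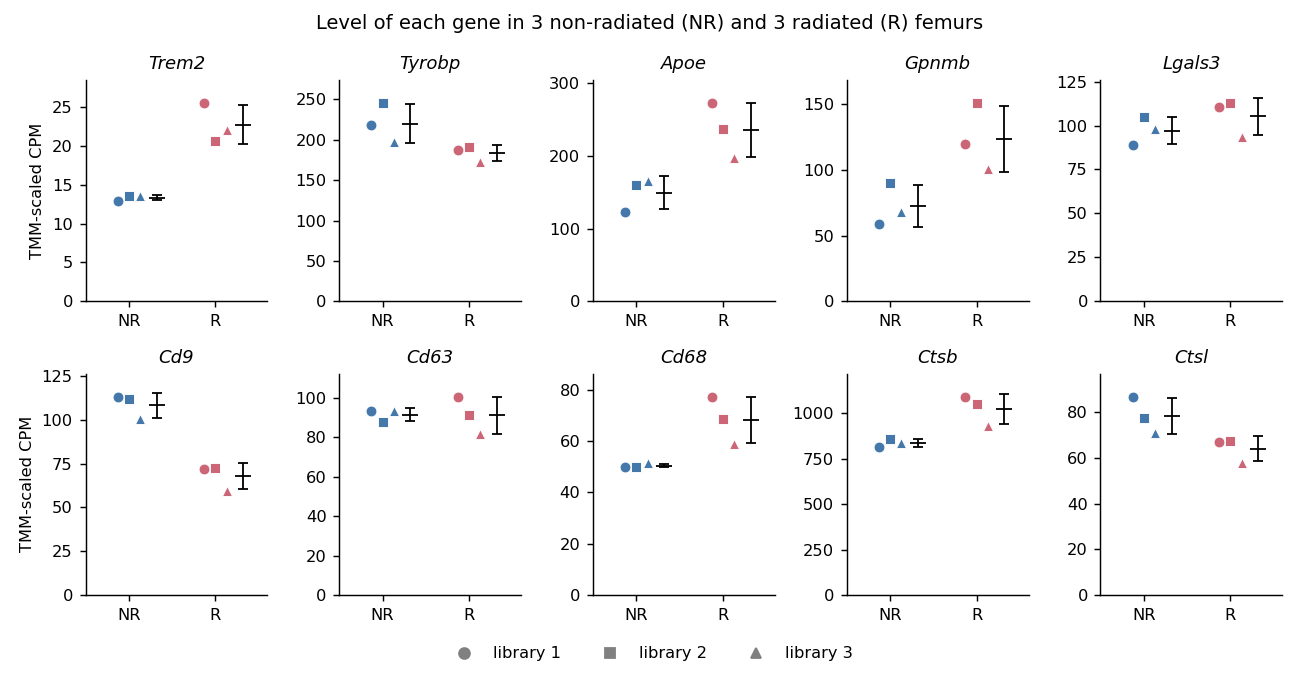
TMM-scaled CPM of each of the 10 genes (vertical axes, linear, from 0) in 3 non-radiated (NR, blue) and 3 radiated (R, red) femur libraries. Symbols give the library number, and the black bar beside each group is the mean with 1 SD. Trem2, Gpnmb, Apoe, Cd68 and Ctsb lie higher in all 3 radiated libraries, Cd9, Tyrobp and Ctsl lower, and Cd63 and Lgals3 overlap.

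Trem2 encodes the receptor itself (ENSMUSG00000023992, chromosome 17, 48346401 to 48354147, build mm10). It was at 12.9, 13.5 and 13.6 CPM in non-radiated libraries 1, 2 and 3 and at 25.5, 20.6 and 22.1 CPM in radiated libraries 1, 2 and 3, from 338 to 1100 counts per library. The non-radiated libraries were nearly alike, and every radiated library lay above all of them. The mean was 13.3 ± 0.340 CPM in the non-radiated and 22.7 ± 2.49 CPM in the radiated libraries (SD, n = 3 each). The log2 fold change was 0.77 (SE 0.09), above those of 95.7% of tested genes. It ranged from 0.68 to 0.83 when each library was left out in turn.

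Tyrobp encodes the adaptor that TREM2 and many other receptors signal through (ENSMUSG00000030579, chromosome 7, 30413788 to 30417577). It was at 218.5, 245.0 and 197.0 CPM in the non-radiated libraries and at 187.8, 190.9 and 172.9 CPM in the radiated libraries. The groups did not overlap, but non-radiated library 3 lay close to the radiated libraries. Tyrobp had a log2 fold change of -0.26 (SE 0.08), not called, which became a call with the replicate number as a block, without a filter on low counts, with DESeq2 and without non-radiated library 3. Within a library, which no scaling between libraries can move, there were 5.92, 5.51 and 6.89 Trem2 counts per 100 Tyrobp counts in the non-radiated and 13.6, 10.8 and 12.8 in the radiated libraries. The Trem2 count per Tyrobp count was therefore higher by a factor of 2.03 in the group means (6.11 ± 0.709 against 12.4 ± 1.44, SD, n = 3 each). Because other cells also use TYROBP, in whole bone this is not a ratio within 1 cell type. Both genes were chosen with their differences in view. The 13 neutrophil markers summed to lower levels in the radiated libraries, and the part of such cells in the ratio was not tested.

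The stretch around the start site is shown for the 5 called genes, of which Trem2, Gpnmb, Cd68 and Apoe were higher and Cd9 was lower. The sequences are from RefSeq on GRCm38.p6 (the build also called mm10), from 250 bases before to 50 bases after the annotated start, 5′ to 3′ on the strand of the gene. Of the 10 genes 8 had an entry, which leaves Tyrobp and Ctsb. Capitals mark every match, on either strand, to 4 short motifs: TGANTCA (an AP-1 type site with any base in the middle), CACGTG (an E-box bound by TFEB, TFE3 and MITF, which switch on lysosomal genes), CATGTG (a related E-box) and GAGGAA (a core bound by ETS factors such as PU.1). No match of 1 motif overlaps one of another in these 5 sequences.

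Trem2, chr17:48346151-48346450, plus strand: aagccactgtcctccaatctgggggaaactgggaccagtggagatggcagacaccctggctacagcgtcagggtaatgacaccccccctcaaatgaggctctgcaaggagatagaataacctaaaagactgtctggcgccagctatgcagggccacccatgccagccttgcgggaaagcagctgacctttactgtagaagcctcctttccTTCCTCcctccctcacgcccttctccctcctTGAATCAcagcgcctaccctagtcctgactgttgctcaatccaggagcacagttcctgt
Gpnmb, chr6:49036268-49036567, plus strand: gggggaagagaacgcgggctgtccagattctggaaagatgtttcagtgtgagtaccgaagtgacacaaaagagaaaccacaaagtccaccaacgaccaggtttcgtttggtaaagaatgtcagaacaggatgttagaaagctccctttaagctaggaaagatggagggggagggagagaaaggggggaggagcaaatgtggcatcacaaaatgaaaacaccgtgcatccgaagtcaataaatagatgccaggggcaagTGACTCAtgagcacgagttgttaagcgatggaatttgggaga
Cd68, chr11:69666121-69666420, minus strand: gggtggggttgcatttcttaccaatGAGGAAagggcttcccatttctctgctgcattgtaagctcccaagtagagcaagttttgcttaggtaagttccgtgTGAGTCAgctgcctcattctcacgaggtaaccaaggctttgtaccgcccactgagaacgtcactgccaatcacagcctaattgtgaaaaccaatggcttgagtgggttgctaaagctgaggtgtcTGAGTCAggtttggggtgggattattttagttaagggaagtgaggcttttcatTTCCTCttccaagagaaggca
Apoe, chr7:19699139-19699438, minus strand, the first of 3 entries: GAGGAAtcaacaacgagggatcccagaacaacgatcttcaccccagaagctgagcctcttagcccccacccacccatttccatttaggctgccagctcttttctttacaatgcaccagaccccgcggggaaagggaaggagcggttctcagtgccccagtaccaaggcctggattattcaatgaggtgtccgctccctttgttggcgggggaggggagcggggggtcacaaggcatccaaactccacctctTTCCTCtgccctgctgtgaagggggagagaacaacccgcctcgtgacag
Cd9, chr6:125494711-125495010, minus strand: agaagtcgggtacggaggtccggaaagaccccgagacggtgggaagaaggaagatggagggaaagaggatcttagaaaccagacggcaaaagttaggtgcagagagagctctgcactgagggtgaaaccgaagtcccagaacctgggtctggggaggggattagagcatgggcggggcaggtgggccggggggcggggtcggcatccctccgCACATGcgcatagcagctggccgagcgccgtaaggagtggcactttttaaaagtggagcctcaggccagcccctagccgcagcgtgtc

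TGANTCA was found in 3 of the 8 genes, Trem2, Gpnmb and Cd68, with 2 matches in Cd68, and in none of the 3 entries of Apoe. The middle base differed: the match reads TGAATCA in Trem2, TGACTCA in Gpnmb and TGAGTCA in Cd68. It is in 7.81% of 32851 RefSeq promoter windows of the same length. GAGGAA was found in 4 of the 8, Trem2, Cd63, Apoe and Cd68, beside 28.3% of all windows. CACGTG was in Ctsl alone (7.15% of all windows) and CATGTG in Cd9 alone (14.2%). A match is a run of letters in the sequence and not a measured binding site, and these windows were chosen for genes whose direction was known.

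Apoe encodes apolipoprotein E, which carries cholesterol out of cells and is a ligand of TREM2 (ENSMUSG00000002985, chromosome 7, 19696109 to 19699166). It was at 123.5, 159.7 and 165.8 CPM in the non-radiated libraries and at 272.2, 236.6 and 197.8 CPM in the radiated libraries. The groups did not overlap, although radiated library 3 stood much nearer to the non-radiated libraries than radiated library 1 did. The log2 fold change was 0.65 (SE 0.13). The call was lost without non-radiated library 1 (log2 fold change 0.53 to 0.77 over the fits that each left out 1 library), without radiated library 1 and with the muscle level as a covariate, which gave 0.53.

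Gpnmb encodes a transmembrane glycoprotein of lysosomes that is also made by osteoblasts and osteoclasts (ENSMUSG00000029816, chromosome 6, 49036518 to 49058182). It was at 58.8, 90.3 and 68.3 CPM in the non-radiated libraries and at 119.4, 150.6 and 100.4 CPM in the radiated libraries. Number 2 was the highest library in both groups. Gpnmb had a log2 fold change of 0.77 (SE 0.17), as large as that of Trem2 but with a larger SE. Its value fell to 0.45 with the muscle level as a covariate, which ended the call, and the call was also lost without non-radiated library 1, non-radiated library 3 or radiated library 1, with log2 fold changes from 0.60 to 0.94 over the fits that each left out 1 library.

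Lgals3 encodes galectin 3, a secreted lectin that binds damaged lysosomes and cell surface sugars (ENSMUSG00000050335, chromosome 14, 47367751 to 47386160). It was at 88.9, 104.8 and 97.8 CPM in the non-radiated libraries and at 110.3, 112.5 and 93.3 CPM in the radiated libraries. The groups overlapped because radiated library 3 was below 2 non-radiated libraries. The log2 fold change was 0.12 (SE 0.08), not called, and its sign turned to -0.023 with the muscle covariate.

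Cd9 and Cd63 encode tetraspanins, membrane proteins that organise other receptors, CD63 on lysosomes and granules and CD9 on the cell surface. Cd9 (ENSMUSG00000030342, chromosome 6, 125460266 to 125494791) was at 112.8, 111.6 and 100.2 CPM in the non-radiated libraries and at 71.7, 72.5 and 59.2 CPM in the radiated libraries. Every radiated library lay well below every non-radiated one, and the log2 fold change was -0.67 (SE 0.08), below those of all but 2.49% of tested genes. Scaling by library totals alone gave -0.48 and no call. Cd63 (ENSMUSG00000025351, chromosome 10, 128908919 to 128912816) was at 93.4, 87.6 and 93.2 CPM in the non-radiated libraries and at 100.3, 91.5 and 81.7 CPM in the radiated libraries. The radiated values lay on both sides of the non-radiated ones, with a log2 fold change of -0.0044 (SE 0.07) whose sign changed in 5 of 15 alternative fits.

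Beside Cd9, the 15 megakaryocyte markers were all called lower, with a median log2 fold change of -1.41. Their summed level was 2204 to 2254 CPM in the non-radiated and 830.5 to 946.2 CPM in the radiated libraries. The part of these cells in the values of Cd9 and Cd63 was not tested. Cd9 overlaps 2 antisense genes, Gm28809 and Gm26728, with mean counts of 24.8 and 5.17, far under those of Cd9.

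Cd68, Ctsb and Ctsl belong to the lysosome: CD68 is a heavily glycosylated lysosomal membrane protein used as a stain for macrophages, and cathepsins B and L are cysteine proteases that digest proteins there. Cd68 (ENSMUSG00000018774, chromosome 11, 69664213 to 69666153) was at 50.1, 50.1 and 51.3 CPM in the non-radiated libraries and at 77.1, 68.7 and 59.0 CPM in the radiated libraries. The non-radiated values were tight and the radiated ones spread out above them, with radiated library 3 the nearest. Cd68 had a log2 fold change of 0.43 (SE 0.09). The call was lost on leaving out non-radiated library 1, non-radiated library 2 or radiated library 1 (log2 fold change 0.34 to 0.53 over all 6 such fits), under library totals alone and with the muscle covariate (0.34).

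Ctsb (ENSMUSG00000021939, chromosome 14, 63122462 to 63145919) was at 816.3, 860.2 and 838.7 CPM in the non-radiated libraries and at 1089, 1051 and 931.7 CPM in the radiated libraries. The groups did not overlap. The log2 fold change of 0.29 (SE 0.08) was not called, and it was called in 6 of 15 alternative fits. Ctsb overlaps Fdft1, whose mean count was 1091. Ctsl (ENSMUSG00000021477, chromosome 13, 64363214 to 64370306) went the other way, at 86.6, 77.4 and 71.1 CPM in the non-radiated libraries and 67.2, 67.4 and 57.9 CPM in the radiated libraries. Its log2 fold change was -0.29 (SE 0.09), not called, and it became a call in 4 of 15 alternative fits, among them the one with the replicate block. The 2 cysteine proteases thus lay on opposite sides of 0, each without overlap between groups.

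**Figure D2:**
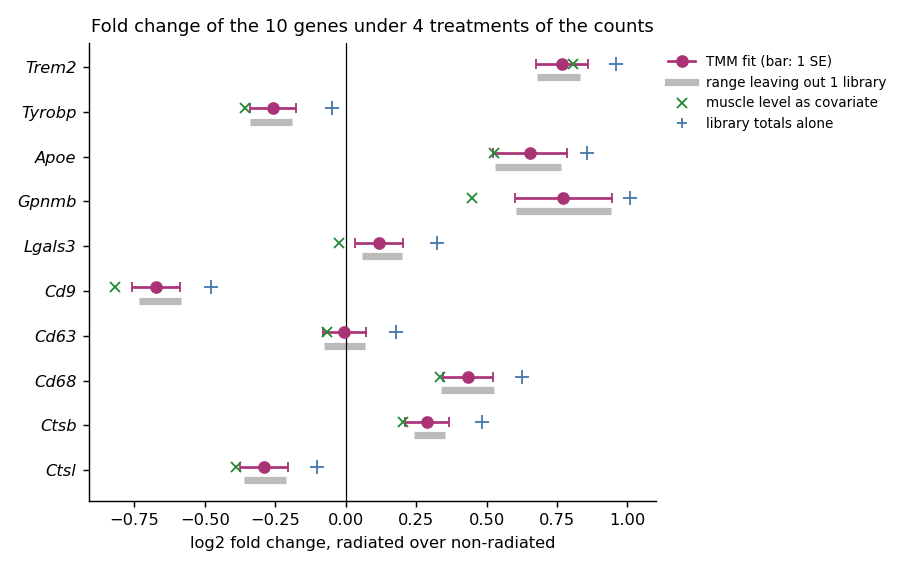
Log2 fold change of radiated over non-radiated femur for each of the 10 genes. The magenta point and bar are the TMM fit with 1 SE, the grey bar is the range over the 6 fits that each left out 1 library, the green cross is the fit with the muscle level as a covariate and the blue plus is the fit scaled by library totals alone, which moved the median of all genes to 0.195. Trem2 stayed between 0.68 and 0.96 under these fits, while the value of Gpnmb fell to 0.45 with the muscle covariate.

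Levels were compared between genes per kilobase of the gene length that the table lists, a length whose making is not stated. In the non-radiated libraries the mean level was 390.4 CPM per kilobase for Tyrobp, 176.9 for Ctsb, 88.6 for Cd63 and 75.6 for Apoe. Cd9 and Lgals3 followed at 52.9 and 52.3, Cd68 and Ctsl at 40.2 and 39.8, Gpnmb at 19.1 and Trem2 at 2.70. Cd9 and Lgals3, and Cd68 and Ctsl, lay closer to each other than the SD over libraries. Trem2 is listed with 4946 bases and Tyrobp with 564. In the radiated libraries the order of the ends was the same, with 326.1 for Tyrobp and 4.59 for Trem2, and Apoe at 119.0 stood above Cd63 at 88.4. Trem2 was thus the lowest of the 10 genes per kilobase in both groups.

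Libraries with the same number were taken as pairs of femurs. In all 3 pairs 8 of the 10 genes differed in 1 direction, the exceptions being Cd63 and Lgals3, which were lower in pair 3. These 8 are the genes whose groups did not overlap, which fixes the direction of each pair, so the count adds nothing to that result. Nothing is read from it, and the share of all tested genes with 1 direction in all pairs was not computed. Apoe had the widest range, with log2(CPM + 0.5) differences of 1.14, 0.57 and 0.25 in pairs 1, 2 and 3. Gpnmb, with 1.01, 0.74 and 0.55, Cd68, with 0.62, 0.45 and 0.20, and Ctsb, with 0.42, 0.29 and 0.15, had the same order of pairs as Apoe. Trem2 differed by 0.95, 0.59 and 0.68, and Cd9, with -0.65, -0.62 and -0.75, varied least in proportion to its size.

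**Figure D3:**
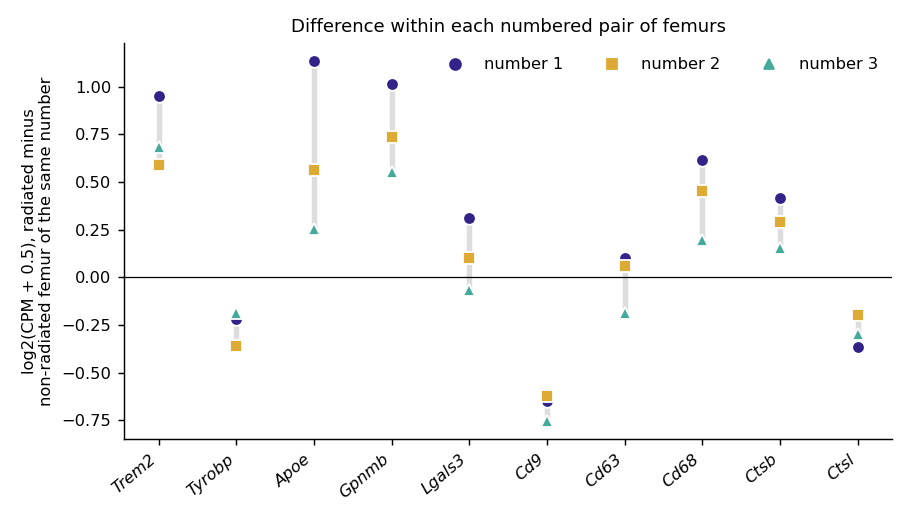
Difference in log2(CPM + 0.5), radiated minus non-radiated femur of the same library number, for each of the 10 genes (points: pairs 1, 2 and 3; grey bars: their range). Pair 1 is the highest point for Trem2, Apoe, Gpnmb, Lgals3, Cd63, Cd68 and Ctsb, and Cd9 lies between -0.75 and -0.62 in every pair.

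Markers of macrophages in general were higher too: of 20 markers 11 were called higher and 2 lower, with 0.45 as the median on the log2 scale. They summed to 1481 to 1570 CPM in the non-radiated and 1840 to 2111 CPM in the radiated libraries. The 2 called lower were Cd163 and Timd4 (chosen for mention after their values were seen), at -0.91 and -1.46. The call of Timd4 was lost without non-radiated library 1 or 2 (edgeR adjusted p 0.0995 and 0.0822). The other 18 markers had log2 fold changes above 0. The counts of each of the 10 genes were therefore also set against the summed counts of these 20 markers in the same library. Trem2 had 0.838, 0.859 and 0.916 counts per 100 marker counts in the non-radiated and 1.21, 1.03 and 1.20 in the radiated libraries, a ratio that was higher without overlap. Cd68 had 3.24, 3.19 and 3.46 against 3.65, 3.45 and 3.21, which overlapped, and its group means differed by a factor of 1.04. Apoe and Gpnmb also overlapped on this scale, with factors of 1.21 and 1.32. The other 6 were lower on this scale without overlap: Ctsb at a factor of 0.943, Lgals3 at 0.838, Cd63 at 0.769, Tyrobp at 0.650, Ctsl at 0.634 and Cd9 at 0.484. The marker sum was itself higher in every radiated library, so a gene that rose less than the sum is lower on this scale. Ctsb, which was higher in CPM, and Cd63, whose CPM overlapped, are such genes. The share of all tested genes without overlap on this scale was not computed, so nothing is read from the number of genes without overlap. The sum also holds markers that moved in opposite directions. These ratios change with the markers chosen, and the part of macrophage number in the values was not tested.

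The genes most like each of the 10 over the 6 libraries were found by Pearson correlation of log2(CPM + 0.5) among the 15580 genes whose mean over libraries reached 1 CPM. These correlations rest on 6 points in 2 groups and are given with no p. Trem2 was most like Fcrl1, a receptor of B cells (r = 0.998), Cpt1c (0.994) and Prrg2 (0.993). Cd9 was most like Kctd14 (0.999), Mfsd6 (0.999) and Prkcq (0.996), and Apoe most like Rnf111 (0.997), Plxnb2 (0.996) and P2ry6 (0.991). The best matches of Gpnmb were Angptl7 (0.994), Gm20460 (0.992) and Rtkn (0.990), and those of Cd68 were Fcer2a, another gene of B cells (0.997), Oas1a (0.996) and Gm4955 (0.995). Tyrobp was matched by Nup54, Bid and Stfa3 (0.996, 0.994 and 0.992), Lgals3 by Ndufs8, Gps2 and Utp11l (0.999, 0.993 and 0.987) and Ctsl by Cpd, Nptn and 3110007F17Rik (0.992, 0.992 and 0.984). For Ctsb another cathepsin, Ctsd (0.993), came after Tril (0.9999) and before Hmces (0.993). Cd63 had the lowest best match, D230017M19Rik (0.991), followed by Trpc4ap and Arhgap31 (0.981 and 0.980).

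The wider pathway was read from 9 lists that leave out the 10 genes and were compiled from gene function, with earlier results of these data already known. They hold 166 distinct genes, of which 157 were tested, and 17 are in more than 1 list. Of the 157, 30 were called higher and 14 lower, 28.0% in all beside 7.8% of all tested genes, with a median log2 fold change of 0.078. Under library totals alone 14 of the 157 were called. The lists share cell types with the 10 genes and are described by counts and medians only.

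**Figure D4:**
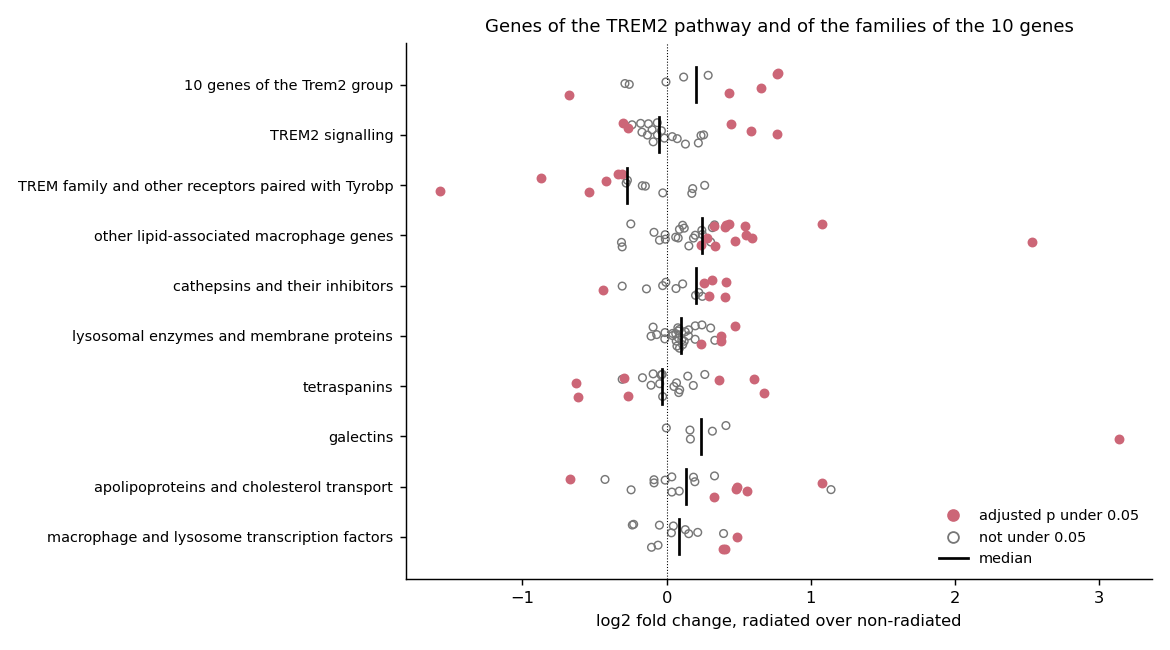
Log2 fold change of every tested gene in the Trem2 group (top row) and in 9 lists of related genes. Filled points have an edgeR adjusted p under 0.05, open points do not, and the black bar is the median of the row. Called genes lie on the higher side for the other lipid-associated macrophage genes. They lie on the lower side for the list of TREM family and TYROBP-paired receptors.

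Downstream of the receptor, calls went in both directions. Of 22 genes of TREM2 signalling 3 were called higher and 2 lower, with a median of -0.05 that was positive (0.15) under library totals alone. Pik3ap1, an adaptor for PI3 kinase, rose from 86.6 ± 3.88 to 117.9 ± 3.97 CPM (SD, n = 3 each), by 0.44 on the log2 scale (SE 0.05), with an adjusted p of 0.00150 in edgeR. Ms4a6d and Ms4a7, of the MS4A family of four-pass membrane proteins of macrophages, rose by 0.76 and 0.59 (edgeR adjusted p 0.00620 and 0.00774). Vav3, a guanine nucleotide exchange factor, fell by 0.30 (edgeR adjusted p 0.00926), and Lcp2, the adaptor SLP-76, was the other call at -0.27. Syk, the kinase that binds TYROBP, was at 471.3, 473.4 and 498.3 CPM in the non-radiated and 563.4, 536.1 and 603.4 CPM in the radiated libraries. The groups did not overlap and the gene was not called (edgeR adjusted p 0.0609). Plcg2, the phospholipase of the pathway, overlapped between groups (log2 fold change -0.06, edgeR adjusted p 0.692). So did Hcst, the adaptor DAP10, at -0.24. The sheddases Adam10 and Adam17, which cut TREM2 from the cell, were at -0.18 and 0.07 and not called. Beside this list, the 10 B cell markers were all called higher. They summed to 527.8 to 569.9 CPM in the non-radiated and 842.6 to 1013 CPM in the radiated libraries. The part of B cells in the values of the signalling genes was not tested.

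Among other receptors, of the TREM family or paired with TYROBP, the calls were on the lower side. The list holds TREM family members, whether or not they pair with TYROBP, and TYROBP-paired receptors of other families. Of its 14 genes 6 were called lower and 0 higher by edgeR, with a median of -0.28. At an unadjusted p under 0.05 there were 7 lower and 2 higher, and DESeq2 and limma-voom also called 0 higher. Under library totals alone Treml1 was the 1 receptor called lower, and Siglech, Treml2 and Sirpb1b were not called (edgeR adjusted p 0.059, 0.774 and 0.602). Treml1, a receptor of platelet granules, fell from 42.3 ± 2.40 to 14.2 ± 1.42 CPM (SD, n = 3 each), a log2 difference of -1.57 (SE 0.09) with an adjusted p of 1.51e-05 in edgeR. It is 1 of the 15 megakaryocyte markers, which were all called lower. They summed to 2204 to 2254 CPM in the non-radiated and 830.5 to 946.2 CPM in the radiated libraries, and their part in the value of Treml1 was not tested. Siglech, a receptor of plasmacytoid dendritic cells, fell by 0.87 and Treml2 by 0.34 (edgeR adjusted p 0.000477 and 0.00550). Sirpb1b fell by 0.54 (edgeR adjusted p 0.0145), but it has close paralogs that can share its reads. Clec5a and Trem1, receptors of neutrophils and monocytes, were also called, at -0.42 and -0.31. The call of Trem1 was lost with the replicate block (edgeR adjusted p 0.0523) and without each of 5 libraries, all but non-radiated library 1, and that of Clec5a without non-radiated library 1 or 2 or without radiated library 1 or 3. All 13 neutrophil markers had negative log2 fold changes, 3 of them called, with summed levels of 15970 to 20030 CPM in the non-radiated and 12550 to 14730 CPM in the radiated libraries. The 10 monocyte markers had a median of -0.04, with 1 called lower. Of 9 dendritic cell markers, Siglech among them, 3 were called lower and 1 higher, and they summed to 142.5 to 148.9 CPM in the non-radiated and 113.9 to 125.9 CPM in the radiated libraries. What part these cells have in the receptor values was not tested. Without non-radiated library 2, 3 receptors were called.

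Of 33 other genes of lipid-associated macrophages 13 were called higher and 0 lower by edgeR, with a median of 0.24. At an unadjusted p under 0.05 there were 20 higher and 2 lower, and 1 was called lower by DESeq2 and 0 by limma-voom. Under library totals alone 6 were called higher. Mmp12, the macrophage elastase, was at 1.59, 1.52 and 1.06 CPM in the non-radiated and 8.93, 8.69 and 6.43 CPM in the radiated libraries. It had the largest rise of the list, 2.54 on the log2 scale (SE 0.20), with an adjusted p of 9.60e-05 in edgeR. Lpl, the lipoprotein lipase, rose from 113.7 ± 8.86 to 240.1 ± 27.2 CPM (SD, n = 3 each), a log2 difference of 1.08 (SE 0.09) with an adjusted p of 0.000147 in edgeR. Fabp5, a fatty acid binding protein, rose by 0.59, and Lipa, the lysosomal acid lipase that frees cholesterol, by 0.48 (edgeR adjusted p 0.00253 and 0.00191).

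Several classic members of that programme were not called. Spp1, osteopontin, which bone cells also make in large amounts, was at 722.3 to 1053 CPM in the non-radiated and 687.6 to 873.4 CPM in the radiated libraries (log2 fold change -0.31, edgeR adjusted p 0.264). Of 11 osteoblast and osteocyte markers 4 were called lower and 0 higher by edgeR, 9 lower and 0 higher at an unadjusted p under 0.05, and 6 lower and 0 higher by DESeq2. They had a median of -0.47 and summed to 4631 to 6986 CPM in the non-radiated and 3454 to 4369 CPM in the radiated libraries, and their part in the value of Spp1 was not tested. Itgax and Cd36 were at 0.09 and -0.01 with overlapping groups, and Cst7 was at -0.31 (edgeR adjusted p 0.162). Fat cells use Lpl, Fabp4, Fabp5, Plin2 and Cd36 as well. All 13 adipocyte markers were higher, 10 of them called, with summed levels of 299.3 to 301.2 CPM in the non-radiated and 695.8 to 974.6 CPM in the radiated libraries, and their part in the list was not tested. Leaving out radiated library 1 left 7 called genes, and leaving out non-radiated library 1 left 8. With the muscle covariate 9 genes of the list were called higher and 1 lower.

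Among cathepsins and their inhibitors, 5 of 15 were called higher and 1 lower, with a median of 0.20. Ctsd, the aspartic protease cathepsin D, rose from 666.9 ± 26.6 to 886.7 ± 75.7 CPM (SD, n = 3 each), a log2 difference of 0.41 (SE 0.08) with an adjusted p of 0.0134 in edgeR. Ctss, the cathepsin of antigen processing, and Ctsa, a carboxypeptidase, rose by 0.40 and 0.32 (edgeR adjusted p 0.0176 and 0.0321). Ctsg, a serine protease of neutrophil granules, was the 1 that fell, by 0.44 (edgeR adjusted p 0.00380). Ctsk, the collagen-cutting cathepsin of osteoclasts, was at 0.11 with overlapping groups (edgeR adjusted p 0.753), and of the 14 osteoclast markers 2 were called higher and 0 lower by edgeR (5 and 2 at an unadjusted p under 0.05, 3 and 2 by DESeq2), with a median of 0.13 and summed levels of 2157 to 2268 CPM in the non-radiated and 2133 to 2254 CPM in the radiated libraries. The list had 1 call without radiated library 1, 2 without non-radiated library 1, 3 without non-radiated library 2, only that of Ctsg with the muscle covariate, and 0 under library totals alone. Ctsa overlaps Pltp, a gene that was also called higher and whose mean count was 912.7.

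Most other genes of the lysosome were not called. Of 30 lysosomal enzymes and membrane proteins 4 were called higher and 0 lower by edgeR, with a median of 0.10 and 25 of 30 above 0. At an unadjusted p under 0.05 there were 9 higher and 0 lower, and DESeq2 and limma-voom each called 5 higher and 0 lower. Beside Lipa they included Lgmn, the protease legumain that processes cathepsins, at 0.38, and Npc2, which hands over cholesterol, at 0.24 (edgeR adjusted p 0.0102 and 0.0338). The call of Npc2 was lost with the replicate block and in each fit that left out a library. Lamp1 and Lamp2, the main membrane proteins of the lysosome, were at 0.13 and -0.11, not called. Without non-radiated library 2 the list had 2 calls.

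Of 22 other tetraspanins 3 were called higher and 4 lower, with a median of -0.03 that was positive under library totals alone (0.16), a scaling with 1 call higher and 0 lower by edgeR. Tspan9, a platelet tetraspanin, fell by 0.61 and Tspan32 by 0.30 (edgeR adjusted p 0.00654 and 0.00950), the same direction as Cd9. Cd37, a tetraspanin of B cells, rose by 0.36 and Tspan18 by 0.68 (edgeR adjusted p 0.00454 and 0.00589). The 10 B cell markers were all called higher, with summed levels of 527.8 to 569.9 CPM in the non-radiated and 842.6 to 1013 CPM in the radiated libraries, and their part was not tested. Cd81 and Cd53 were at 0.19 and -0.05 and not called. Without radiated library 1, or without non-radiated library 1, 4 tetraspanins were called.

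Of 6 tested galectins beside Lgals3 only Lgals12 was called, a galectin of fat cell lipid droplets. It was at 0.274, 0.200 and 0.307 CPM in the non-radiated and 2.32, 2.21 and 2.58 CPM in the radiated libraries, a log2 difference of 3.14 (SE 0.22) with an adjusted p of 5.73e-05 in edgeR. The count was 3 with the replicate block and 3 without radiated library 3. Lgals1 and Lgals3bp were at 0.32 and 0.41, with groups that did not overlap and no call, and both were called with the replicate block (edgeR adjusted p 0.0370 and 0.0428).

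Around Apoe, 5 of 18 tested genes of apolipoproteins and cholesterol transport were called higher and 1 lower, with a median of 0.14. Lrp1, a receptor that takes up APOE, rose from 439.4 ± 37.9 to 646.3 ± 73.4 CPM (SD, n = 3 each), a log2 difference of 0.56 (SE 0.10) with an adjusted p of 0.00844 in edgeR. Abca1, the transporter that loads cholesterol onto APOE, rose by 0.33 (edgeR adjusted p 0.0107). Clu, the apolipoprotein clusterin, which platelets also carry, fell by 0.67 (edgeR adjusted p 0.00306). The remaining apolipoproteins were scarce: Apoa1, Apoa2, Apob, Apoc1, Apoc4 and Apom were under the filter with at most 20 counts in a library, and Apoc3 had 0 counts in all 6. Without radiated library 1 the list had 3 calls.

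Of 14 transcription factors of macrophages and lysosomes 3 were called higher and 0 lower by edgeR, with a median of 0.09. At an unadjusted p under 0.05 there were 5 higher and 1 lower, and DESeq2 and limma-voom called 0 lower. Maf, a factor of macrophages that is also on the list of macrophage markers, rose by 0.39 (edgeR adjusted p 0.00326). Bhlhe41 rose by 0.41 and Nr1h3, the cholesterol sensor LXR alpha that drives Apoe and Abca1 in macrophages, by 0.49 (edgeR adjusted p 0.0270 and 0.0368). Bhlhe41 and Nr1h3 were each called in only 1 of the 6 fits that left out a library. Neither was called with the muscle covariate (edgeR adjusted p 0.0577 and 0.128). Mitf was at 0.40, with groups that did not overlap (edgeR adjusted p 0.0510), and was called with the replicate block (0.0289). Its relatives Tfeb, Tfe3 and Tfec were at 0.13, 0.03 and -0.24, not called. Spi1, which encodes PU.1, was at -0.10 with overlapping groups. Only 1 of the list was called in each of the 5 fits that left out a library other than non-radiated library 3, and none under library totals alone.

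**Figure D5:**
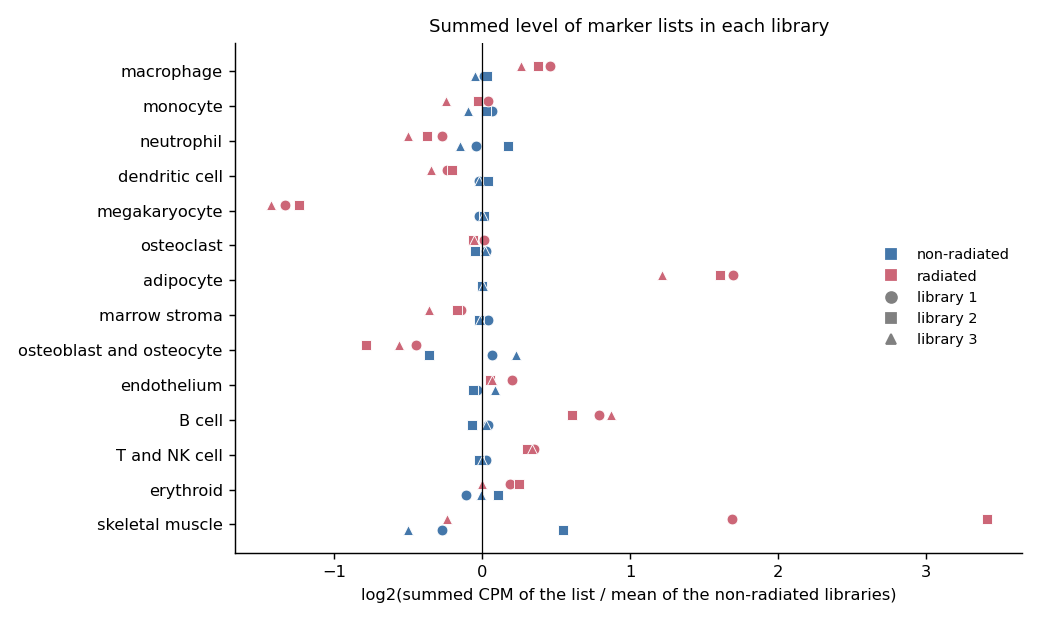
Summed CPM of 14 cell type marker lists in each library, as log2 of the ratio to the mean of the 3 non-radiated libraries (blue: non-radiated, red: radiated, symbols: library number). Radiated libraries all lie higher for macrophages, adipocytes, B cells and T and NK cells. They all lie lower for megakaryocytes, neutrophils, dendritic cells, marrow stroma, and osteoblasts and osteocytes. The muscle list is far higher in radiated libraries 1 and 2 than in library 3.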

How the data were processed

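Strand-selective poly(A) RNA-seq libraries were made from 3 radiated and 3 non-radiated femurs, per the labels' protocols. The raw counts per gene deposited by the authors were analysed. The submitters' processing notes name STAR 2.5.2b, Subread, featureCounts and build mm10, without roles. The annotation, filters and strand setting are not given in the sources used here. The RPKM values deposited by the authors entered no test.

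The main test was that of edgeR 4.0.16 (run in R 4.3.3): filterByExpr (minimum count 10, minimum total 15), TMM, glmQLFit and glmQLFTest with the group as the only term, and Benjamini-Hochberg adjustment over all 18757 genes tested. An SE was obtained as the absolute log2 fold change over the root of its F statistic. The fit was tested on simulated data. Labels do not say that libraries are separate animals, so the spread between them may be technical. Replicates differed beyond sampling noise (chi-square per degree of freedom at least 17.8). That value includes AY036118 and the muscle genes and cannot tell separate animals from technical spread.

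Both groups carry numbers 1 to 3. Deviations from the group means correlated at 0.226, 0.419 and 0.236 for equal numbers and at most 0.0276 otherwise across genes, so equal numbers were treated as pairs, and a fit blocked on the number served as an alternative.

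The 10 genes and the lists were chosen with earlier results of these data known. Genes named are the 10, in each pathway list up to 4 called genes with the smallest p, and the 3 genes most correlated with each of the 10; others were named after their values were seen, and 1 gene that the rule names is not reported here. Of 355 list entries 354 were found, 3 through their gene ID in GENCODE M21. Other alternatives were DESeq2 1.42.0 size factors and Wald test, limma-voom (limma 3.58.1), library totals with and without AY036118, no filter, a mean of at least 1 CPM, leaving out each library, and, chosen after seeing the data, the log2 muscle level as a covariate.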

Additional observations from a re-analysis of the deposited data

How the results depend on the processing

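Of the 10 genes 5 were called. This count was 3 under library totals alone, 8 with no filter on low counts, 8 with the DESeq2 Wald test, 7 with the replicate block and 2 with the muscle covariate, and between 2 and 6 when a library was left out, with the lowest value on leaving out library 1 of either group. Called pathway genes numbered 44, 14 under library totals alone, 46 with the replicate block, and 27 to 41 when a library was left out (29 without non-radiated library 1, 29 without non-radiated library 2, 27 without radiated library 1). Over all genes 1463 were called (58.5% higher), 764 to 1376 when a library was left out. The count over all genes was 1000 under library totals alone, 2073 with no filter on low counts and 1928 with the DESeq2 Wald test. It was 1670 with the replicate block and 1073 with the muscle covariate. The median log2 fold change of the 10 genes, 0.203, was 0.404 under library totals alone, a scaling that also moved the median of all genes to 0.195 and the share of higher calls to 85.4%, 0.0906 with the muscle covariate, and 0.162 to 0.275 when a library was left out. It was 0.235 under library totals without AY036118, where 67.3% of calls were higher. Signs changed for Cd63, at 0.18 under library totals alone, 0.0097 without non-radiated library 1 (-0.0781 to 0.0674 over all fits that left out a library), 0.0039 without non-radiated library 3, 0.067 without radiated library 3 and 0.027 under library totals without AY036118, and for Lgals3, at -0.023 with the muscle covariate. They also changed for genes near 0 that were not called: under library totals alone Plcg2 (0.142), Adam10 (0.0133), Cd36 (0.194), Lamp2 (0.0758), Cd53 (0.147) and Spi1 (0.104), when a library was left out Cd36 (-0.127 to 0.0488), Ctsk (-0.0811 to 0.21), Tfe3 (-0.0039 to 0.0519) and Cd53 (-0.105 to 0.0119), with limma-voom Cd36 (0.0033), under library totals without AY036118 Cd36 (0.0239), and with the muscle covariate Itgax (-0.11). The muscle covariate rests on 2 radiated libraries with high muscle RNA. The cause of these shifts was not tested. Beside the changes given above for Tyrobp, Ctsl, Npc2, Trem1, Lgals1, Lgals3bp and Mitf, the replicate block changed no other call of a gene named there with a fold change.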
